A study of Mus musculus with 6 samples.

Results

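Imprinted genes are expressed from 1 parental copy, and 42 of them, listed by symbol and grouped by locus and by the parental allele they use, were followed in hearts of mice that carry extra DNA methyltransferases. A probe set was taken for a gene where the platform annotation gave that symbol, or a synonym, and no other gene. By this rule 39 of the 42 genes were found, with 105 probe sets, out of 18193 genes and 45037 probe sets that are not controls. No probe set met it for H19, Rtl1 or Zrsr1. The DNMTs-Tg group held 3 mice (replicates 1, 5 and 6) with ectopic DNMT3A2, a short isoform of the de novo methyltransferase DNMT3A, and DNMT3L, its partner without catalytic activity. The other group held 3 wild-type mice (replicates 1, 4 and 6), and all 6 hearts were taken at 8 weeks of age and put on 1 Affymetrix array each. Per the labels, the transgenic line came from Ddx4-cre females of an FVB strain, in which Cre acts in germ cells, and males with a floxed allele. The labels do not give the promoter that drives the transgenes, the strain of the wild-type mice or whether the mice were littermates.

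The allele that an imprinted gene uses is fixed by DNA methylation that is laid down in the egg or the sperm, where DNMT3A works together with DNMT3L, at short stretches called imprinting control regions. After fertilisation these marks are copied at each cell division and kept through the zinc finger proteins ZFP57 and ZFP445 with their partner TRIM28, while the rest of the genome is reprogrammed. At several loci a long noncoding RNA made from 1 parental chromosome keeps its protein-coding neighbours silent on that same chromosome. Many imprinted genes act in fetal and placental growth and are turned down in most tissues after birth. The arrays read total RNA and do not tell the parental alleles apart, and DNA methylation was not analysed here.

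Dnmt3l separated the genotypes, with mean log2 signals of 12.29 ± 0.09 in DNMTs-Tg hearts and 5.31 ± 0.15 in wild-type hearts (SD, n = 3 each). The sex labels went against the arrays in 4 mice. Only wild-type replicate 6 is labelled male, yet Eif2s3y, a Y-linked gene, read 9.41 to 9.52 on 5 arrays and 3.32 on that of wild-type replicate 4, where alone Xist was high at 10.1. The values for the main results are therefore also given without wild-type replicate 4. The DNMTs-Tg arrays lay apart from each other, with first principal component scores of -72.9, -26.8 and -4.34, against 33.9, 37.8 and 32.3 for the wild-type arrays. Gapdh, whose 3' probe set reads further above its 5' one where RNA is less intact, gave a log2 gap of 0.75, 0.53 and 0.71 on the DNMTs-Tg arrays, against 0.50, 0.40 and 0.40 on the wild-type arrays. This gap moved with genotype, and its part in the results was not tested.

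In the DNMTs-Tg hearts 4 of the 31 imprinted genes that could be tested changed on at least 1 probe set. Ppp1r9a fell about as steeply on both of its tested probe sets, 1 probe set each of the noncoding RNAs Meg3 and Rian fell, and 1 probe set of Peg3 rose. Beyond these, a probe set that the annotation shares between H19 and the microRNA it encodes fell, and 2 that it shares between Snurf and Snrpn rose, 1 of which passed the filter by its DNMTs-Tg arrays alone. A probe set was tested if its signal exceeded the array's own 40th percentile on 3 or more of the 6 arrays. This left 65 of the 105 probe sets, in 31 genes, and 27319 in the whole table. With limma and Benjamini-Hochberg adjustment over all 27319, 5 of the 65 passed the threshold of 0.05, which is 7.69%, against 4.13% of the whole table. Of these, 1 rose, where 1.77% of the table rose, and 4 fell, where 2.36% fell. With 1 value per gene, 4 of the 31 passed by the probe set of highest mean, where 735 of 13634 genes did. By the mean of a gene's tested probe sets 2 passed, where 714 of the 13634 did. Without wild-type replicate 4 the count was 2 of 65, both of Ppp1r9a, against 0.798% of the table. It was also 2 without DNMTs-Tg replicate 5, wild-type replicate 1 or wild-type replicate 6, and it was 9 without DNMTs-Tg replicate 6. With no filter 4 of all 105 passed, where 2.11% of 45037 probe sets did.

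The differences, DNMTs-Tg minus wild-type on the log2 scale, were below 0 for 43 of the 65 probe sets (66.2%), against 49.1% of the whole table. Their median was -0.09, against 0.01 over all tested probe sets. Counted once per gene, by the median of its tested probe sets, 20 of 31 genes (64.5%) lay below 0, against 49.4% of 13634 genes. The groups did not overlap for 8 probe sets that were higher and 17 that were lower in DNMTs-Tg hearts (38.5%), close to the 32.5% of the whole table, where 16.1% were higher and 16.4% lower. An unadjusted p under 0.05 was found for 23 of the 65, where the share in the table was 24.2%. The map of differences by locus shows that the genes of a locus did not all lie on 1 side of 0. Of the 7 loci with 2 or more tested genes, gene medians lay on both sides at 5.

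**Figure D1:**
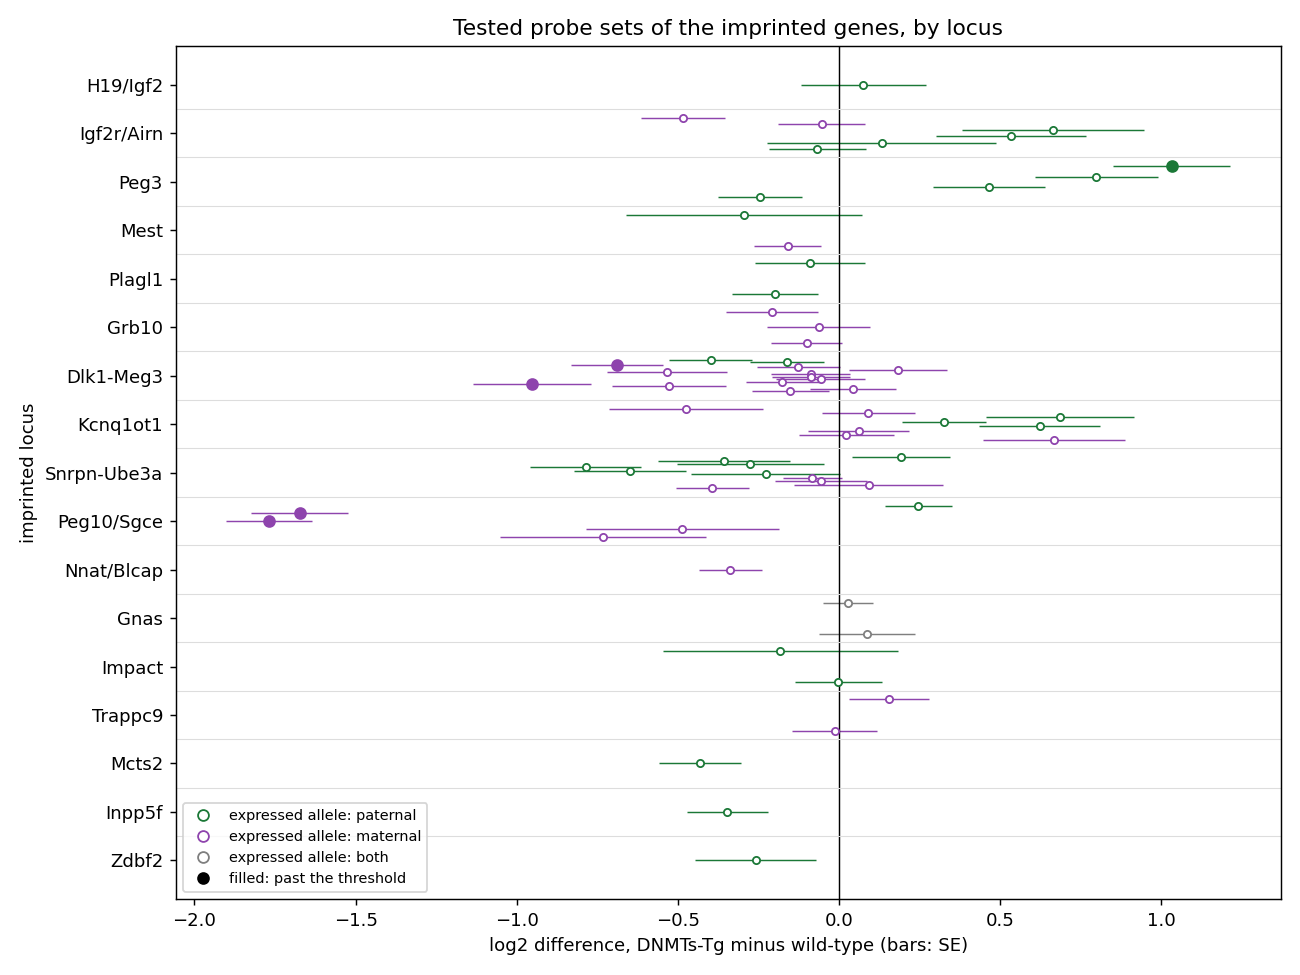
Log2 difference, DNMTs-Tg minus wild-type, of each of the 65 tested probe sets (points, with SE bars), by imprinted locus and coloured by the allele the gene uses. Filled points passed the threshold: 2 of Ppp1r9a at -1.77 and -1.67, 1 each of Rian at -0.95 and Meg3 at -0.69, and 1 of Peg3 at 1.03.

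By parental allele, 26 of 34 tested probe sets of maternally expressed genes lay lower in DNMTs-Tg hearts (76.5%), and all 4 falls were among them. Of paternally expressed genes 17 of 29 lay lower (58.6%), and the 1 rise was among them. By gene the counts were 11 of 15 maternally and 9 of 15 paternally expressed genes below 0, with medians of -0.15 and -0.14. The maternal count is weighted by Meg3, which alone gave 8 of the 34 probe sets. The classes are those listed for each gene, and the allele used in the heart was not measured. The difference between the 2 classes was not tested.

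The locus around Peg10 and Sgce on chromosome 6 held the steepest fall. Its paternally expressed genes are Peg10, derived from a retrotransposon and needed for the placenta, and Sgce, which encodes epsilon-sarcoglycan, a membrane protein related to those of the dystrophin complex. Listed as maternally expressed are Ppp1r9a, encoding neurabin, an actin-binding protein that targets protein phosphatase 1, and Asb4, which encodes a substrate receptor of ubiquitin ligases. Whether the heart uses only the maternal allele of either gene was not measured. On each array, in the order of replicates 1, 5 and 6 and of 1, 4 and 6, probe set 1456072_at of Ppp1r9a read 5.12, 5.19 and 5.39 on the DNMTs-Tg arrays, against 6.95, 7.17 and 6.88 on the wild-type arrays. On 1440285_at the same gene read 5.37, 5.52 and 5.87 on the DNMTs-Tg arrays, against 7.31, 7.20 and 7.26 on the wild-type arrays. On both, every DNMTs-Tg array lay more than 1 log2 unit below every wild-type array, and the 3 arrays of each group lay close together. The first fell by 1.77 ± 0.13 (SE, adjusted p = 0.00178), which is 3.41-fold on the linear scale. The second fell by 1.67 ± 0.15 (adjusted p = 0.00300), or 3.19-fold. Both calls were kept with any 1 of the 6 arrays left out, with adjusted p of at most 0.0282, and without wild-type replicate 4 Ppp1r9a fell by 1.68 and 1.70. In whole hearts, fewer cells of a type and less RNA per cell cannot be told apart.

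None of the neighbours of Ppp1r9a passed the threshold. Sgce read 8.47, 8.32 and 8.41 on the DNMTs-Tg arrays, against 8.14, 8.15 and 8.17 on the wild-type arrays, a small difference of 0.25 without overlap that did not pass (adjusted p = 0.203). Asb4 read 6.20, 5.04 and 6.04 on the DNMTs-Tg arrays, against 6.20, 6.40 and 6.87 on the wild-type arrays on the probe set with the larger difference (-0.73, adjusted p = 0.216). Its low mean came from DNMTs-Tg replicate 5, while replicates 1 and 6 lay at or just below the lowest wild-type array. The other Asb4 probe set differed by -0.49 with overlap. Peg10 was dim, meaning below the 40th percentile of every array, at 3.56 to 3.69 in DNMTs-Tg and 3.69 to 3.87 in wild-type hearts. So were 3 further probe sets of Ppp1r9a, which were not tested and differed by -0.29 to -0.07.

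The noncoding RNAs of the Dlk1-Meg3 locus on chromosome 12 lay lower in part. Meg3, Rian and Mirg are transcribed in the same direction from the maternal chromosome. Meg3 is a nuclear long noncoding RNA, Rian hosts C/D box small nucleolar RNAs, and Mirg hosts a large microRNA cluster. Of the 14 tested probe sets of the locus 12 lay below 0, 6 of them without overlap, and 2 fell. Of all tested probe sets 49.1% lay below 0, 16.4% were lower without overlap and 2.36% fell. Rian 1452899_at read 5.71, 5.37 and 5.67 on the DNMTs-Tg arrays, against 6.59, 6.21 and 6.81 on the wild-type arrays. All 3 DNMTs-Tg arrays were below the lowest wild-type array, and the probe set fell by 0.95 ± 0.18 (SE, adjusted p = 0.0358, 1.93-fold). Meg3 1452905_at read 7.18, 7.06 and 6.86 on the DNMTs-Tg arrays, against 7.79, 7.54 and 7.85 on the wild-type arrays, again with no overlap. It fell by 0.69 ± 0.14 (adjusted p = 0.0437, 1.61-fold).

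Both calls were lost without DNMTs-Tg replicate 5 or any 1 wild-type array. In those fits 167 to 268 probe sets of the table passed, against 1129 with all arrays. For Rian the adjusted p was 0.121 without DNMTs-Tg replicate 5, 0.145 without wild-type replicate 1, 0.0529 without wild-type replicate 4 and 0.124 without wild-type replicate 6. For Meg3 it was 0.127 without DNMTs-Tg replicate 5, 0.176 without wild-type replicate 1, 0.0995 without wild-type replicate 4 and 0.164 without wild-type replicate 6. Each was kept without DNMTs-Tg replicate 1 or 6, and the differences stayed between -1.12 and -0.81 for Rian and between -0.78 and -0.60 for Meg3. The mean over all tested probe sets of a gene gave -0.48 for Rian (adjusted p = 0.104) and -0.20 for Meg3 (adjusted p = 0.255). The Meg3 call was also lost with no filter on dim probe sets (adjusted p = 0.0557) and with the arrays set to a common median (adjusted p = 0.0522).

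The other probe sets of these RNAs did not move as 1. Meg3 1452183_a_at read 5.85, 6.32 and 6.36 on the DNMTs-Tg arrays, against 6.83, 6.45 and 6.85 on the wild-type arrays, lower without overlap but short of the threshold (-0.53, adjusted p = 0.143). Rian 1427580_a_at read 4.46, 4.86 and 4.68 on the DNMTs-Tg arrays, against 5.12, 4.95 and 5.51 on the wild-type arrays, also without overlap (-0.53, adjusted p = 0.132). These 2 probe sets, like the 2 that fell, put every DNMTs-Tg array below the wild-type ones. On the remaining tested probe sets of Meg3 the groups overlapped. Meg3 1439380_x_at read 7.17, 7.17 and 7.34 on the DNMTs-Tg arrays, against 7.46, 7.17 and 7.44 on the wild-type arrays. Meg3 1426758_s_at read 6.05, 6.22 and 6.02 on the DNMTs-Tg arrays, against 6.11, 6.13 and 6.31 on the wild-type arrays. The letters x and s in these names mark probes that also match other RNAs, and both differed by little, -0.13 and -0.09. Meg3 1429257_at read 6.60, 6.59 and 6.75 on the DNMTs-Tg arrays, against 6.64, 6.58 and 6.18 on the wild-type arrays, the 1 tested Meg3 probe set above 0 (0.18).

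Another 3 probe sets of Meg3 showed as little. Meg3 1428764_at read 4.97, 5.15 and 5.29 on the DNMTs-Tg arrays, against 5.27, 5.26 and 5.14 on the wild-type arrays. Meg3 1452906_at read 4.83, 5.23 and 5.10 on the DNMTs-Tg arrays, against 5.21, 4.99 and 5.12 on the wild-type arrays. Meg3 1436057_at read 4.76, 4.93 and 4.95 on the DNMTs-Tg arrays, against 5.10, 5.12 and 4.94 on the wild-type arrays. Their differences were -0.09, -0.06 and -0.18, all within the spread between arrays. The remaining tested Rian probe set, 1440001_at, read 4.82, 4.87 and 4.82 on the DNMTs-Tg arrays, against 4.73, 4.62 and 5.04 on the wild-type arrays (0.04), and the tested Mirg probe set, 1440097_at, read 5.57, 5.49 and 5.54 on the DNMTs-Tg arrays, against 5.81, 5.51 and 5.73 on the wild-type arrays (-0.15, adjusted p = 0.478). Neither differed beyond its spread. RefSeq places 1 microRNA hairpin of the table used within Meg3, 3 within Rian and 10 within Mirg. The heat map of the noncoding RNAs sets these probe sets side by side. It shows the lower DNMTs-Tg values of Rian and Meg3 on 2 probe sets each and values nearer 0 on the other probe sets of these genes.

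**Figure D2:**
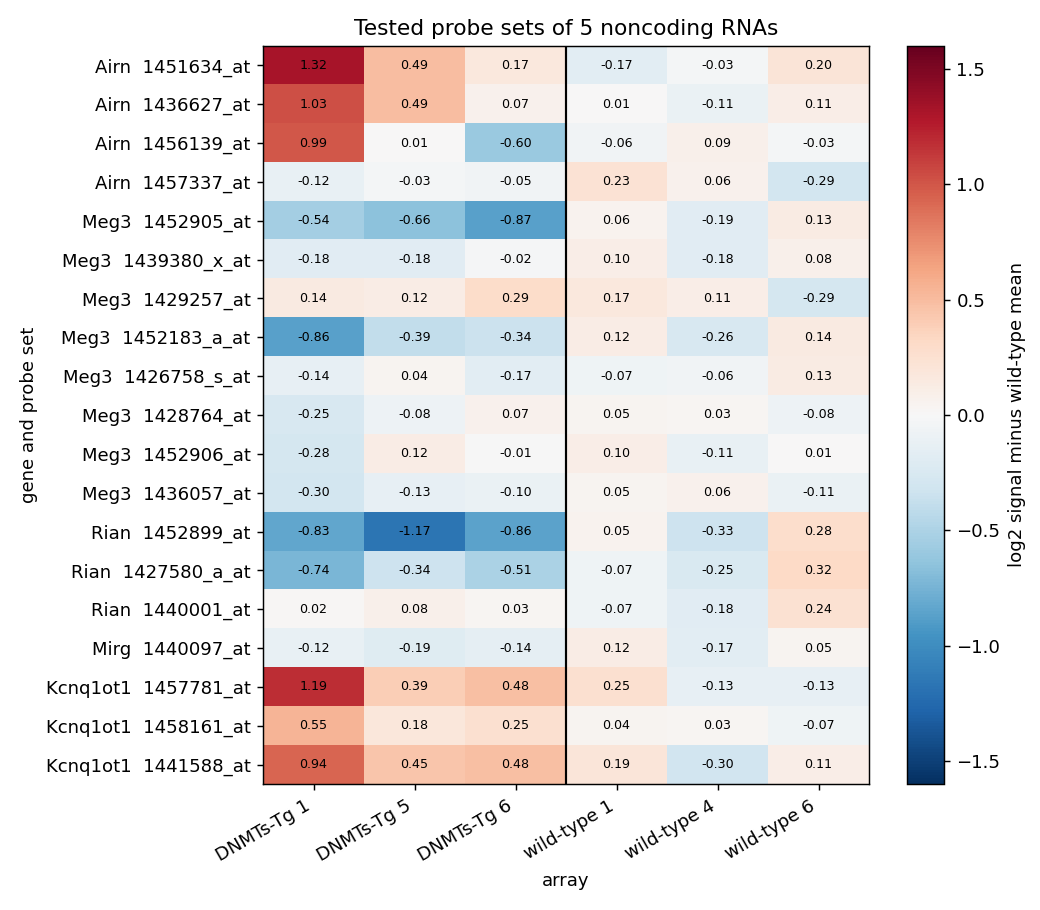
Log2 signal minus the wild-type mean (colour and printed value) for each of the 19 tested probe sets of Airn, Meg3, Rian, Mirg and Kcnq1ot1 (rows) on the 6 arrays (columns, DNMTs-Tg left of the line). Rian 1452899_at stands at -0.83, -1.17 and -0.86 and Meg3 1452905_at at -0.54, -0.66 and -0.87 on the DNMTs-Tg arrays, while Airn 1451634_at stands at 1.32, 0.49 and 0.17.

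The remaining probe sets of these RNAs lay below the 40th percentile on at least 4 arrays and were not tested. Meg3 1429256_at read 4.62, 4.80 and 4.91 on the DNMTs-Tg arrays, against 4.62, 4.61 and 4.68 on the wild-type arrays. Meg3 1428765_at read 3.11, 3.27 and 3.47 on the DNMTs-Tg arrays, against 3.75, 3.65 and 3.59 on the wild-type arrays, and Meg3 1436713_s_at read 3.83, 3.15 and 2.80 on the DNMTs-Tg arrays, against 3.44, 3.65 and 3.60 on the wild-type arrays. The second of these had no overlap, at a level where many probe sets are dim. Rian 1428055_at read 2.73, 2.82 and 2.74 on the DNMTs-Tg arrays, against 2.76, 2.76 and 2.67 on the wild-type arrays, and Mirg 1457030_at read 3.75, 3.74 and 3.97 on the DNMTs-Tg arrays, against 3.55, 3.83 and 3.52 on the wild-type arrays. The groups overlapped for both. Dlk1, the paternally expressed protein-coding gene of the locus and an atypical Notch ligand of fetal tissues, read 5.10, 5.02 and 4.75 on the DNMTs-Tg arrays, against 5.29, 5.44 and 5.33 on the wild-type arrays on 1449939_s_at. Its groups did not overlap, and the difference of -0.40 did not pass (adjusted p = 0.123). The other Dlk1 probe set differed by -0.16. At this locus the paternal gene and the maternal RNAs lay on the same side of wild-type. No probe set was found for Rtl1, a paternal gene derived from a retrotransposon.

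H19 and Igf2 share a control region on chromosome 7. H19 is a maternal noncoding RNA that is abundant in fetal tissues and encodes the microRNA miR-675 in its first exon, and Igf2 is the paternal growth factor gene next to it. The 1 probe set for H19, 1448194_a_at, is annotated to H19 and Mir675 together, because the microRNA gene lies within H19, and so it is not among the 105. It read 6.29, 5.89 and 6.23 on the DNMTs-Tg arrays, against 7.69, 7.52 and 7.94 on the wild-type arrays. Every DNMTs-Tg array lay more than 1 log2 unit below the lowest wild-type array. It fell by 1.58 ± 0.16 (SE, adjusted p = 0.00483, 2.99-fold), was called with any 1 array left out (adjusted p at most 0.0349), and fell by 1.68 without wild-type replicate 4. Igf2 read 8.65, 8.79 and 9.31 on the DNMTs-Tg arrays, against 8.86, 8.63 and 9.02 on the wild-type arrays, with overlap and a difference of 0.07 ± 0.19 (adjusted p = 0.847). A second Igf2 probe set was dim on every array. The mature microRNAs are shown, with the seed (bases 2 to 8) in capitals, because the annotation ties them to this fall. The sequences are those of RefSeq on GRCm38.p6, both on the minus strand, mmu-miR-675-5p at chr7:142577112-142577133 and mmu-miR-675-3p at chr7:142577078-142577099. The arrays do not measure the processed microRNAs, and the 2 seeds differ.
mmu-miR-675-5p: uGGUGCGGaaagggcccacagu
mmu-miR-675-3p: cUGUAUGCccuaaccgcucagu

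At the Peg3 locus on chromosome 7 the paternal genes parted. Peg3 encodes a zinc finger protein, Usp29 a ubiquitin-specific protease from the opposite strand, and Zim1 is a maternal zinc finger gene. Peg3 1433924_at read 7.83, 8.38 and 8.00 on the DNMTs-Tg arrays, against 6.87, 6.96 and 7.28 on the wild-type arrays. The lowest DNMTs-Tg array lay above the highest wild-type array, and the probe set rose by 1.03 ± 0.18 (SE, adjusted p = 0.0283, 2.05-fold). The adjusted p was 0.0913 without DNMTs-Tg replicate 5, 0.129 without wild-type replicate 1, 0.120 without wild-type replicate 4 and 0.0647 without wild-type replicate 6. Leaving out DNMTs-Tg replicate 1 or 6 did not end the call. Peg3 1417355_at read 7.59, 8.27 and 7.74 on the DNMTs-Tg arrays, against 6.97, 7.22 and 7.03 on the wild-type arrays, a difference of 0.80 with adjusted p = 0.0637. The remaining tested one, 1417356_at, differed by 0.46 (adjusted p = 0.164). All 3 tested Peg3 probe sets were higher without overlap, where 16.1% of the table was, and on each DNMTs-Tg replicate 5 was the highest array. The 3 probe sets read 1 gene on the same arrays. Their mean passed too, at 0.77 (adjusted p = 0.0488). Usp29 differed by -0.25 (adjusted p = 0.291), below 0 although it is read from the same parental chromosome. Zim1 was dim on every array.

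**Figure D3:**
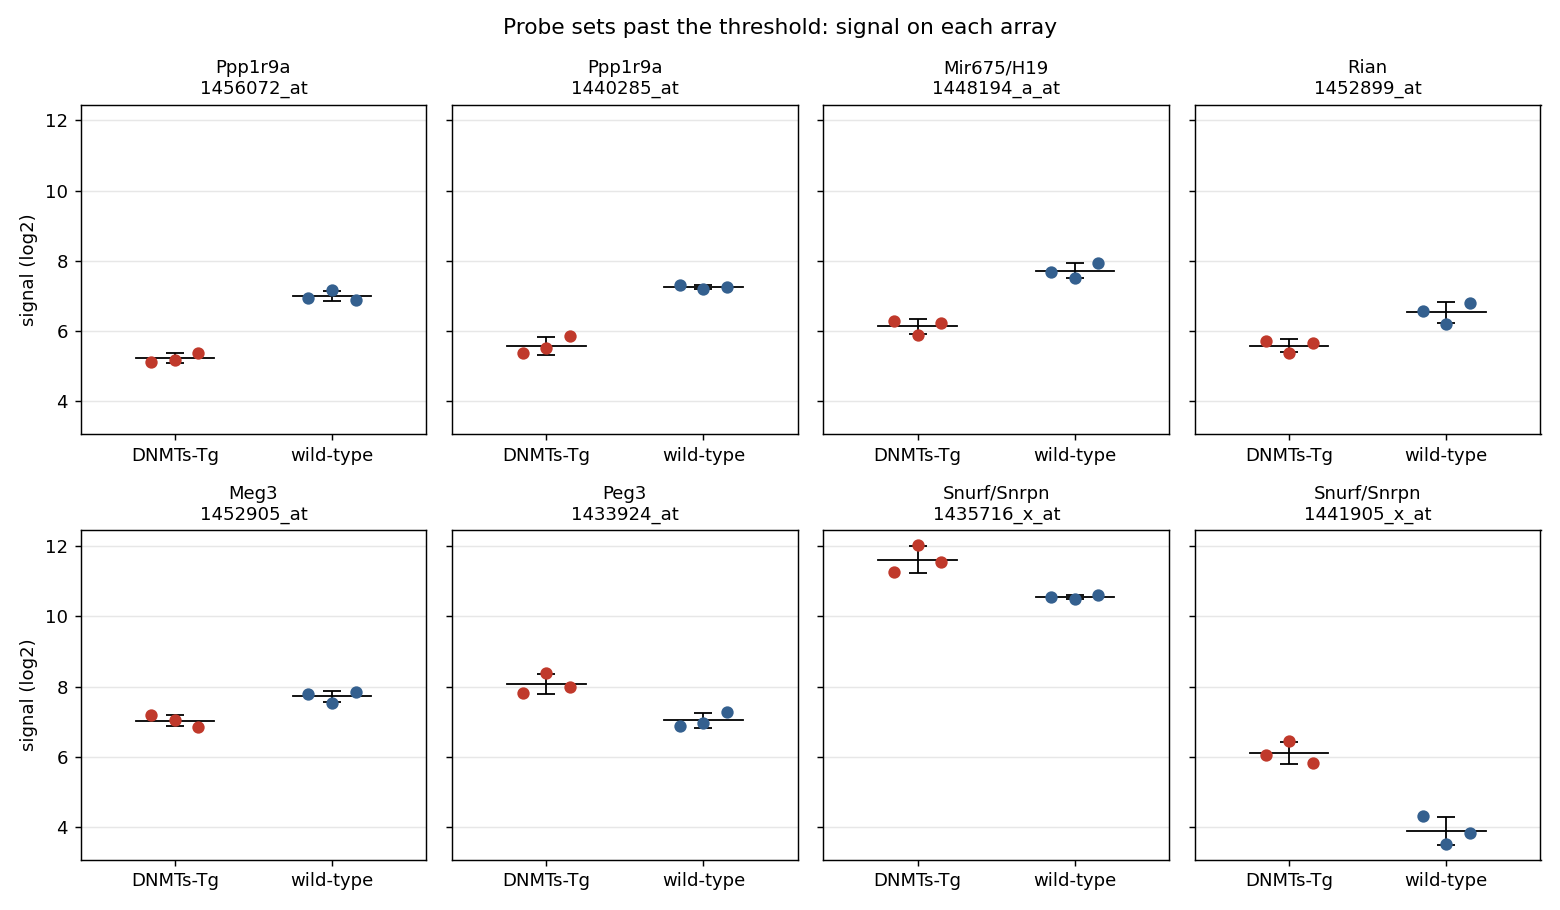
Log2 signal (y axis) on each array (points) of the 8 probe sets past the threshold, DNMTs-Tg left and wild-type right, with mean and SD. Ppp1r9a, Mir675/H19, Rian and Meg3 lie lower and Peg3 and Snurf/Snrpn higher in DNMTs-Tg hearts, and the groups overlap in none of the 8.

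The Snrpn-Ube3a locus, also on chromosome 7, holds a run of paternal genes and the maternal Ube3a, whose ubiquitin ligase is imprinted in neurons and made from both copies elsewhere. Snrpn encodes a core protein of the spliceosome and shares its transcript with Snurf, an upstream reading frame. A probe set of Snrpn alone, 1432096_at, read 6.58, 7.01 and 6.58 on the DNMTs-Tg arrays, against 6.45, 6.52 and 6.62 on the wild-type arrays, with overlap (0.19, adjusted p = 0.472). Another 6 probe sets are annotated to Snurf and Snrpn together and so are not among the 105. Of these 5 were tested, 4 were higher without overlap, and 2 rose, where 16.1% of the table was higher without overlap and 1.77% rose. The 4 and the 2 both include 1441905_x_at, which passed the filter by its DNMTs-Tg arrays alone and so had to differ. Of the 2 that rose, 1435716_x_at read 11.26, 12.02 and 11.55 on the DNMTs-Tg arrays, against 10.56, 10.49 and 10.61 on the wild-type arrays. It rose by 1.06 ± 0.18 (adjusted p = 0.0275), and DNMTs-Tg replicate 5 was again the highest array. Its adjusted p was 0.0586 without DNMTs-Tg replicate 5, 0.120 without wild-type replicate 1, 0.116 without wild-type replicate 4 and 0.101 without wild-type replicate 6.

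The other Snurf and Snrpn probe set that rose, 1441905_x_at, read 6.05, 6.44 and 5.82 on the DNMTs-Tg arrays, against 4.31, 3.53 and 3.84 on the wild-type arrays. Its wild-type values were all dim, so that it passed the filter by the DNMTs-Tg arrays alone, and it was at least 2.61-fold higher (adjusted p = 0.00532). A probe set that passes in this way had to differ, so the call is given as a description. The 3 others differed by 0.50, 0.52 and 1.13, with adjusted p from 0.112 to 0.184. On all of them DNMTs-Tg replicate 5 was the highest array. Those with x or s in the name may again include signal of related RNAs.

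The other genes of that locus did not share the direction. Ndn, a paternal gene for necdin, a growth suppressor of the MAGE family, lay below 0 on all 5 tested probe sets. Ndn 1437853_x_at read 7.76, 7.34 and 7.98 on the DNMTs-Tg arrays, against 8.48, 8.53 and 8.42 on the wild-type arrays. Its groups did not overlap, and the difference of -0.79 ± 0.17 (SE) fell just short of the threshold (adjusted p = 0.0519). It passed with the stricter 60th percentile filter (adjusted p = 0.0447) and after quantile normalization (adjusted p = 0.0446). The other 4 Ndn probe sets differed by -0.65 to -0.23, and DNMTs-Tg replicate 5 was the lowest array on each, the reverse of its place for Snurf and Snrpn. Ube3a had 4 tested probe sets. On 1416680_at it read 10.99, 10.97 and 10.84 on the DNMTs-Tg arrays, against 11.00, 11.08 and 10.97 on the wild-type arrays, a difference of -0.08, while 1425206_a_at was lower without overlap (-0.39, adjusted p = 0.0964). Magel2 and Mkrn3, a MAGE family gene and a ring finger gene, and Peg12, of the Frat family, were dim on every array.

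At the Kcnq1ot1 locus on chromosome 7 the paternal noncoding RNA lay higher, with no probe set past the threshold. Kcnq1ot1 silences its neighbours on the paternal chromosome. Kcnq1ot1 1457781_at read 6.67, 5.88 and 5.96 on the DNMTs-Tg arrays, against 5.74, 5.36 and 5.35 on the wild-type arrays. Kcnq1ot1 1458161_at read 5.84, 5.47 and 5.54 on the DNMTs-Tg arrays, against 5.33, 5.33 and 5.22 on the wild-type arrays. Kcnq1ot1 1441588_at read 5.31, 4.82 and 4.86 on the DNMTs-Tg arrays, against 4.57, 4.07 and 4.48 on the wild-type arrays. On all 3 every DNMTs-Tg array lay above every wild-type array, and DNMTs-Tg replicate 1 was the highest. Their differences were 0.69 ± 0.23, 0.33 ± 0.13 and 0.62 ± 0.19 (SE), with adjusted p = 0.132, 0.184 and 0.105. The last passed the filter by its DNMTs-Tg arrays alone. The share of tested probe sets that were higher without overlap was 16.1%. The probe sets below the filter were split. Kcnq1ot1 1459443_at read 4.48, 4.80 and 4.66 on the DNMTs-Tg arrays, against 4.71, 4.47 and 4.84 on the wild-type arrays. Kcnq1ot1 1442029_at read 4.40, 3.84 and 3.71 on the DNMTs-Tg arrays, against 3.53, 3.66 and 3.49 on the wild-type arrays, and 1446255_at read 2.59, 2.70 and 2.75 on the DNMTs-Tg arrays, against 2.64, 2.93 and 2.86 on the wild-type arrays. Only the second of these had higher values without overlap.

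The maternal genes that Kcnq1ot1 silences in cis did not move together. Tssc4, which encodes a factor of spliceosome assembly, read 8.03, 7.50 and 7.16 on the DNMTs-Tg arrays, against 6.81, 7.05 and 6.82 on the wild-type arrays, higher without overlap (0.67, adjusted p = 0.128). Cdkn1c, a cyclin-dependent kinase inhibitor that restrains growth, read 7.91, 8.23 and 8.38 on the DNMTs-Tg arrays, against 8.98, 8.13 and 8.83 on the wild-type arrays, a difference of -0.48 with overlap (adjusted p = 0.269). Phlda2, a restraint on placental growth, differed by 0.09, and the transporter gene Slc22a18 by 0.06 and 0.02. In all, 7 of the 8 tested probe sets of the locus lay above 0, and Cdkn1c was the exception, where 49.1% of the table lay below 0. The 7 include 3 of Kcnq1ot1, of which 1441588_at passed the filter by its DNMTs-Tg arrays alone. They also include the small differences of Phlda2 and Slc22a18.

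Airn is the paternal noncoding RNA that starts within Igf2r, antisense to it, on chromosome 17, and it silences Igf2r in several tissues. Igf2r encodes the receptor that clears insulin-like growth factor 2. Airn 1451634_at read 8.85, 8.02 and 7.70 on the DNMTs-Tg arrays, against 7.36, 7.50 and 7.73 on the wild-type arrays. Airn 1436627_at read 7.83, 7.30 and 6.88 on the DNMTs-Tg arrays, against 6.81, 6.69 and 6.91 on the wild-type arrays. On both, DNMTs-Tg replicate 1 was far above all others, replicate 5 came next, and replicate 6 lay among the wild-type arrays. The differences of 0.66 ± 0.28 and 0.53 ± 0.23 (SE) did not pass (adjusted p = 0.205 and 0.214), and without DNMTs-Tg replicate 1 they were 0.33 and 0.28. Airn 1456139_at read 7.39, 6.41 and 5.81 on the DNMTs-Tg arrays, against 6.35, 6.49 and 6.37 on the wild-type arrays, the same order of arrays with replicate 6 below wild-type (0.13). Airn 1457337_at read 5.22, 5.32 and 5.29 on the DNMTs-Tg arrays, against 5.57, 5.41 and 5.06 on the wild-type arrays (-0.07), and 1446095_at, below the filter and not tested, read 6.59, 5.15 and 4.72 on the DNMTs-Tg arrays, against 4.53, 4.55 and 4.48 on the wild-type arrays. The first showed no such order, and the second did.

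Igf2r 1424112_at read 10.86, 10.77 and 10.47 on the DNMTs-Tg arrays, against 11.09, 11.33 and 11.14 on the wild-type arrays. Its groups did not overlap, and the difference was -0.48 ± 0.13 (SE, adjusted p = 0.0839). Its lowest array was DNMTs-Tg replicate 6. The other Igf2r probe set, 1424111_at, differed by -0.05. A probe set annotated to both genes differed by 0.07 (adjusted p = 0.768).

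Markers of other cell types shared the high array seen for Airn. The 10 fibroblast markers stood at 1.41, 0.39 and 0.19 (mean log2 over the wild-type mean) on the DNMTs-Tg arrays, against -0.22, -0.05 and 0.26 on the wild-type arrays. Their summed linear signal was 26258 to 52965 in DNMTs-Tg and 21449 to 27793 in wild-type hearts. The 10 macrophage markers stood at 1.30, -0.17 and -0.06 on the DNMTs-Tg arrays, against -0.04, -0.12 and 0.16 on the wild-type arrays, with sums of 4955 to 12857 in DNMTs-Tg and 5341 to 6632 in wild-type hearts. Neither list had a member past the threshold. For both, DNMTs-Tg replicate 1 was the highest array, as for Airn, Kcnq1ot1 and Tssc4, and their part in those values was not tested. The 10 cardiomyocyte markers, none of them dim on all arrays, stood at -0.07, 0.07 and -0.10 on the DNMTs-Tg arrays, against 0.09, -0.17 and 0.08 on the wild-type arrays, and none passed. Their sums did not overlap, at 164465 to 182050 in DNMTs-Tg and 185759 to 188157 in wild-type hearts. Of their 22 tested probe sets 8 were lower and 1 was higher without overlap, where 16.4% of the table was lower and 16.1% higher. The 10 endothelial markers stood slightly higher on every DNMTs-Tg array, at 0.06, 0.13 and 0.24 on the DNMTs-Tg arrays, against 0.00, -0.03 and 0.03 on the wild-type arrays, with sums of 6815 to 7651 in DNMTs-Tg and 6424 to 6719 in wild-type hearts. Of them Vwf rose, by 1.39 ± 0.21 (SE, adjusted p = 0.0196). The brightest probe sets of the other endothelial markers differed by -0.24 (Tek) to 0.32 (Egfl7), so the list's mean rests largely on Vwf. The 5 adipocyte markers measured stood lower on every DNMTs-Tg array, at -0.54, -0.28 and -0.25 on the DNMTs-Tg arrays, against 0.16, -0.16 and 0.00 on the wild-type arrays, with sums of 11833 to 15336 in DNMTs-Tg and 11853 to 13174 in wild-type hearts. Only 2 of these 5 were tested, with no call, Adipoq differed by -1.57 without overlap below the filter, and Cidec and Lep were dim on every array. The brightest probe sets of the other adipocyte markers differed by -0.12 (Lep) to 0.10 (Fabp4), so this mean rests largely on Adipoq. Of 8 smooth muscle markers, all tested, and 8 neuronal ones, 5 of them tested, none passed, and Elavl4, Snap25 and Tubb3 were dim on every array. The part of the cardiomyocyte, endothelial and adipocyte values in the results was not tested.

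**Figure D4:**
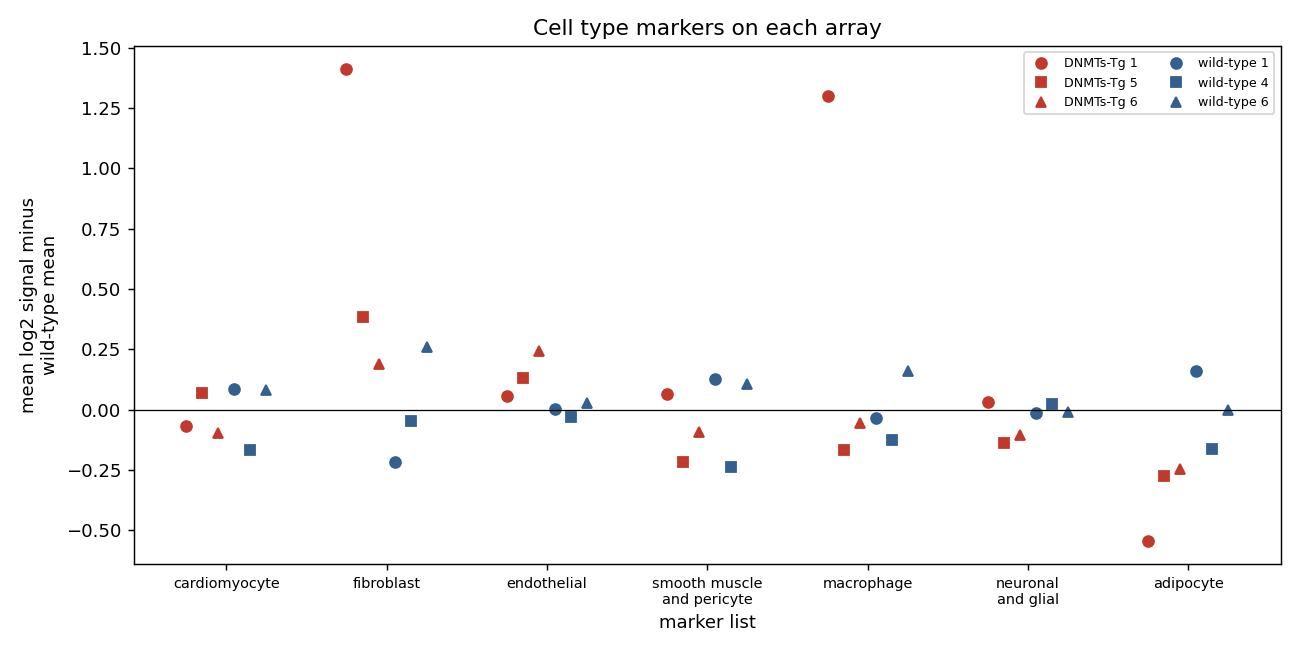
Mean log2 signal over the markers of 7 cell type lists, relative to the wild-type mean (y axis), on each of the 6 arrays (points). DNMTs-Tg replicate 1 stands at 1.41 for fibroblast and 1.30 for macrophage markers, and the cardiomyocyte markers lie between -0.17 and 0.09 on all 6 arrays.

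The loci with a single imprinted gene or pair here held no call. Mest encodes a hydrolase-like protein and lies beside the maternal Copg2, a subunit of the COPI vesicle coat. Copg2 read 8.55, 8.55 and 8.53 on the DNMTs-Tg arrays, against 8.73, 8.61 and 8.76 on the wild-type arrays, slightly lower without overlap (-0.16, adjusted p = 0.381), and Mest differed by -0.29 ± 0.37 (SE) with DNMTs-Tg values spread from 6.46 to 7.93. Plagl1, a zinc finger gene of a growth network, read 4.69, 4.94 and 5.06 on the DNMTs-Tg arrays, against 5.01, 5.06 and 5.21 on the wild-type arrays on 1438588_at (-0.20). Grb10, an adaptor that restrains insulin signalling, read 10.27, 9.86 and 10.19 on the DNMTs-Tg arrays, against 10.25, 10.21 and 10.50 on the wild-type arrays on its brightest probe set, and its 3 tested probe sets differed by -0.21 to -0.06. None of these passed the threshold. Blcap, a maternal gene that holds Nnat within it, read 9.27, 9.21 and 9.31 on the DNMTs-Tg arrays, against 9.60, 9.64 and 9.55 on the wild-type arrays, with no overlap and close replicates (-0.34, adjusted p = 0.0968). Mcts2, a retrogene for a translation factor, read 8.53, 8.77 and 8.47 on the DNMTs-Tg arrays, against 8.99, 8.92 and 9.14 on the wild-type arrays, also without overlap (-0.43, adjusted p = 0.101). Inpp5f, an inositol phosphatase gene with an imprinted variant, read 6.86, 6.57 and 6.64 on the DNMTs-Tg arrays, against 7.09, 6.93 and 7.09 on the wild-type arrays (-0.35, adjusted p = 0.155). These 3 lay lower without overlap, by small amounts, as did 16.4% of the table, and none passed the threshold.

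Gnas, the gene of the stimulatory G protein subunit that is expressed from both copies in most tissues, showed almost no difference. Its probe set 1450186_s_at read 13.26, 13.37 and 13.42 on the DNMTs-Tg arrays, against 13.27, 13.34 and 13.35 on the wild-type arrays, with a difference of 0.03 ± 0.08 (SE), and 1453413_at read 4.91, 4.72 and 5.24 on the DNMTs-Tg arrays, against 4.81, 4.90 and 4.90 on the wild-type arrays (0.09). Impact, a paternal gene that tempers the amino acid starvation response, read 9.49, 9.12 and 8.37 on the DNMTs-Tg arrays, against 9.25, 9.74 and 8.54 on the wild-type arrays (-0.18 ± 0.36). Its spread within each group was larger than that difference. Trappc9, which encodes a subunit of a vesicle tethering complex, read 7.79, 7.89 and 8.03 on the DNMTs-Tg arrays, against 7.86, 7.77 and 7.62 on the wild-type arrays (0.16), and the zinc finger gene Zdbf2 read 4.83, 5.41 and 5.20 on the DNMTs-Tg arrays, against 5.14, 5.47 and 5.60 on the wild-type arrays (-0.26). For all 4 genes the groups overlapped. Nnat, a proteolipid gene of brain and endocrine cells, Nap1l5 and Rasgrf1, a Ras exchange factor gene, were dim on every array, and Zrsr1 had no probe set. With Zim1, Magel2, Peg12, Mkrn3 and Peg10 this makes 8 genes with no tested probe set.

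The start regions of the genes that changed differ in CpG content, the dinucleotide that DNMT3A methylates. Windows of 300 bases that hold a start, from RefSeq on GRCm38.p6, were found for 35 of the 42 genes. Their 51 windows held a median of 15 CpG (the letters CG, which read the same on both strands), against 7 over all 32851 windows. The windows of the called members are printed with each CpG in capitals, to show how unlike they are. The 2 Ppp1r9a windows, on the plus strand at chr6:4902725-4903024 and chr6:4903061-4903360, hold 10 and 48 CpG, and 43.5% and 1.22% of all windows hold at least as many. The Peg3 window, on the minus strand at chr7:6730370-6730669, holds 13 (37.9%) and shares 263 bases with that of Usp29. The first Meg3 window, on the plus strand at chr12:109540746-109541045, also holds 13, and the second, at chr12:109545148-109545447, holds 1. The Rian window, on the plus strand at chr12:109603695-109603994, holds 0. The members that fell span nearly the whole range of CpG content. These counts describe the letters only, and methylation of the windows was not analysed here.
Ppp1r9a window 1: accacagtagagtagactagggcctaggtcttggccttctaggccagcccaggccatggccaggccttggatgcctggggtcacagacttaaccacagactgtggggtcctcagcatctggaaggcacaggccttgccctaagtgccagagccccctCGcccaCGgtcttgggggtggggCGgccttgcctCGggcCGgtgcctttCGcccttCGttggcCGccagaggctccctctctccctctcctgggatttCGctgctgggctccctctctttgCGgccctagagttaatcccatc
Ppp1r9a window 2: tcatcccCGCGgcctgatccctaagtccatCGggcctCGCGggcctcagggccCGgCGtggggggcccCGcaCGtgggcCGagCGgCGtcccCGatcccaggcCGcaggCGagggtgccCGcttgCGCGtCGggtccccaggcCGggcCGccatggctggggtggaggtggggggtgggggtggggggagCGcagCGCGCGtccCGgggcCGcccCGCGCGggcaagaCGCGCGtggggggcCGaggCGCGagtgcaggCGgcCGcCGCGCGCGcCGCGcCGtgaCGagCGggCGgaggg
Peg3: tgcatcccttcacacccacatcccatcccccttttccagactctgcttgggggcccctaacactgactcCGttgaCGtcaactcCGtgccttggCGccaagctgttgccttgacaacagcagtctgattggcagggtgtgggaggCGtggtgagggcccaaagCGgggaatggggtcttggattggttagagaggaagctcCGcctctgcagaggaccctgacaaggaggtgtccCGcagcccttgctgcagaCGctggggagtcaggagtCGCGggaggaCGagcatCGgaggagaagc
Meg3 window 1: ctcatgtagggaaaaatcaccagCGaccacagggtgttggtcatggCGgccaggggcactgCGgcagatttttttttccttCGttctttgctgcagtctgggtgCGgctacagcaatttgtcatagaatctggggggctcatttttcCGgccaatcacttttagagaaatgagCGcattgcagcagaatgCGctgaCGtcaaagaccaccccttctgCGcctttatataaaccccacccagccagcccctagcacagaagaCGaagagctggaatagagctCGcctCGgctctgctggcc
Meg3 window 2: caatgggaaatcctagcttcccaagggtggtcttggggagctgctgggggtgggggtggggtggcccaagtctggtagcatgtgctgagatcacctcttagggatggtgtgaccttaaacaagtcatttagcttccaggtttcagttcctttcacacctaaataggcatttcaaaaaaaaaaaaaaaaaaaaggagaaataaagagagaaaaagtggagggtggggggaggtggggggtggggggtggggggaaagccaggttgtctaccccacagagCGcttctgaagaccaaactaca
Rian: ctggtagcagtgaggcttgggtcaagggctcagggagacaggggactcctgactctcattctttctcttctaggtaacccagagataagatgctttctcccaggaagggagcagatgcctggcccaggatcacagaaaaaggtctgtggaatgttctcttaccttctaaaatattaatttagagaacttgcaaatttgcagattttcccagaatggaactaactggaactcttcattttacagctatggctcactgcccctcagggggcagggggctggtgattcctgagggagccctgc

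Imprinted genes outside the 42 were followed as a second list. Of 42 listed, 34 had a probe set, 47 probe sets of 30 genes were tested, 3 rose and 1 fell, where 1.77% of the table rose and 2.36% fell, and the median difference was 0.02, against 0.01 over the table. Both probe sets of the amino acid transporter gene Slc38a4 rose, by 2.80 ± 0.32 (SE, adjusted p = 0.00681) and 2.43 ± 0.36 (adjusted p = 0.0181). The first call was lost without DNMTs-Tg replicate 5 (adjusted p = 0.0522), and the second without DNMTs-Tg replicate 5 or wild-type replicate 1 or 4 (adjusted p up to 0.0849). Cobl, an actin nucleator gene that flanks Grb10 on chromosome 11, read 9.05, 8.56 and 8.20 on the DNMTs-Tg arrays, against 7.23, 7.11 and 7.19 on the wild-type arrays. This probe set, 1442076_at, rose by 1.43 ± 0.21 (SE, adjusted p = 0.0174), in the order of arrays seen for Airn. The adjusted p was 0.0788 without DNMTs-Tg replicate 5, 0.0812 without wild-type replicate 1, 0.0825 without wild-type replicate 4 and 0.0732 without wild-type replicate 6. The other tested Cobl probe set, 1434917_at, differed by 0.38 with overlap and did not pass (adjusted p = 0.200). Ddc, the gene of aromatic amino acid decarboxylase on the other side of Grb10, read 4.00, 3.90 and 3.97 on the DNMTs-Tg arrays, against 5.60, 4.96 and 5.25 on the wild-type arrays. Its DNMTs-Tg values were dim, so that it passed the filter by the wild-type arrays alone and had to differ. The fall was at least 1.50-fold (limma, adjusted p = 0.00996), and the call was lost without DNMTs-Tg replicate 5 (adjusted p = 0.0637). Of these neighbours on chromosome 11, Ddc was lower, Grb10 was within its spread and Cobl was higher on 1442076_at.

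The last list held 22 genes that set or keep imprints, of which 21 had a probe set, 43 probe sets were tested, 8 rose and none fell, where 1.77% of the table rose and 2.36% fell. The median was 0.02, and the 8 rises came from 4 genes. The rises belong to Dnmt3l and Dnmt3a, which the transgenes encode, the methyl-CpG binding protein gene Mbd1 (4 probe sets, of which 1453678_at passed the filter by its DNMTs-Tg arrays alone) and Zfp445. The rises of Dnmt3l and of 1453678_at were fixed by the transgene or the filter, so the count of 8 is given as a description. For Dnmt3a, RNA of the transgene and of the mouse's own gene was not told apart here. Mbd1 1417968_a_at rose by 1.43 ± 0.15 (SE, adjusted p = 0.00483), and Dnmt3a rose by 1.02 ± 0.22 (adjusted p = 0.0491) on 1 of 5 tested probe sets. Its other tested probe sets all lay below 0, by -0.28 to -0.09, with overlap. The Dnmt3a call was lost without DNMTs-Tg replicate 1 or 5 or wild-type replicate 1 or 4 (adjusted p up to 0.182) and with no filter (adjusted p = 0.0563). Mbd1 1417968_a_at was called in all 6 fits with 1 array left out, and the other Mbd1 probe sets in 4, 3 and 2 of them, with losses without DNMTs-Tg replicate 5 or any 1 wild-type array (adjusted p up to 0.158). Zfp445 1454774_at read 10.85, 10.94 and 11.30 on the DNMTs-Tg arrays, against 10.13, 9.75 and 10.29 on the wild-type arrays. Zfp445 1427254_at read 8.58, 8.77 and 9.00 on the DNMTs-Tg arrays, against 8.09, 7.92 and 8.24 on the wild-type arrays. On both, and on the remaining tested probe set (0.59, adjusted p = 0.0519), every DNMTs-Tg array lay above every wild-type array, as for 16.1% of the table. DNMTs-Tg replicate 6 was the highest array on each. The rises were 0.97 ± 0.18 (SE, adjusted p = 0.0305) and 0.70 ± 0.15 (adjusted p = 0.0482). With 1 array left out they were called in 2 and 1 of 6 fits. The first was lost without DNMTs-Tg replicate 5 (adjusted p = 0.0991) or any 1 wild-type array (adjusted p up to 0.120). Zfp57 differed by -0.09, Trim28 by 0.15 on its brightest probe set and Ctcf, the insulator protein gene, by -0.21, and none passed. Dppa3, which guards maternal marks in the egg, and Zfp42 were dim on every array.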

How the data were processed

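The values deposited by the authors are log2 signals, as their range shows. Their background correction, normalization and software are not stated in the labels or the file. Per the labels, total RNA of each heart was labelled with biotin by in vitro transcription. Array medians were 5.28 to 5.33, and the values were used as deposited. Of 45101 probe sets, 64 controls were left out; 34958 had 1 symbol in the platform annotation, 932 several and 9211 none. No detection calls were used, so a dim probe set is one at or below the 40th percentile of its array, which is no measured background. Against a dim group a fold is a lower bound, set by the mean of those percentiles.

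The 2-sided test was that of limma 3.58.1, run in R 4.3.3 with a variance trend in eBayes, on 27319 probe sets, with adjusted p-values by the Benjamini-Hochberg method and a threshold of 0.05. The steps were tested on simulated data. Each member with a call, each probe set of a noncoding RNA and the probe set of smallest p of every other locus are given in full. Of the 2 further lists, the members past the threshold are named, at most 6 each. The members and lists were chosen with earlier results of these data known. The alternatives were other filters, other scalings, other variance models, gene-level values, a replicate block and leaving out each array. Precision is limited by the number of arrays.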

Additional observations from a re-analysis of the deposited data

How the results depend on the processing

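Of the 65 tested probe sets, 5 passed the threshold. The count was 4 with no filter and with a common median, 6 with the 60th percentile filter and with quantile normalization, and 5 with no variance trend. Array weights gave 27 (9480 over the table, 34.7%), and 1 value per gene gave 4 by the gene's probe set of highest mean (735 over the table) or 2 by the mean of its probe sets (714), where 1129 passed in all. With 1 array left out the count ranged from 2 to 9 and that of the table from 167 to 2749. The number of members below 0 was 39 to 46 of 65 in all of these fits at the 40th percentile. No call changed sign. The labels share the numbers 1 and 6 between the groups. Arrays of the same number did not deviate together (r = -0.05 and -0.08), against r = 0.06 and 0.11 for arrays of unlike numbers. With 3 arrays per group these values cannot show whether arrays of the same number shared a litter or a batch. With the label number as a replicate block limma called 0 members (14 at an unadjusted p under 0.05) and 2 probe sets of the table, and Ppp1r9a had an adjusted p of 0.169 and 0.183. In that fit DNMTs-Tg replicate 5 and wild-type replicate 4 each formed a block alone and did not inform the difference. Little was left to estimate the spread, so the loss of calls cannot show whether pairing mattered.

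Some probe sets without a call changed sign. With array weights the differences were 0.045 for Meg3 1426758_s_at, 0.082 for Meg3 1452906_at, -0.032 for Igf2 1448152_at, -0.10 for Gnas 1453413_at and 0.041 for Zdbf2 1456783_at. With the replicate block they were -0.063 for Rian 1440001_at and 0.037 for Impact 1415911_at. With 1 array left out they ranged from -0.30 to 0.50 for Airn 1456139_at, -0.21 to 0.046 for Airn 1457337_at, -0.15 to 0.055 for Meg3 1452906_at, -0.045 to 0.17 for Rian 1440001_at, -0.12 to 0.21 for Igf2, -0.055 to 0.21 for Gnas and -0.50 to 0.13 for Impact. The cause was not tested.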

Other observations

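Of the 40 imprinted probe sets below the filter, 3 were higher and 8 lower in DNMTs-Tg hearts without overlap, and 0 passed limma fitted without a filter, where 7 had an unadjusted p under 0.05. Of all 17718 probe sets below the filter, 4.73% were higher and 12.5% lower without overlap, and 11.4% had an unadjusted p under 0.05. The brain proteolipid gene Nnat read 2.87, 3.10 and 2.77 on the DNMTs-Tg arrays, against 3.56, 3.35 and 3.50 on the wild-type arrays, a difference of -0.56 (adjusted p = 0.0537 without the filter). The maternal zinc finger gene Zim1 read 3.91, 3.70 and 3.85 on the DNMTs-Tg arrays, against 3.95, 4.52 and 4.23 on the wild-type arrays, lower on each DNMTs-Tg array. A second probe set of Ddc, 1430591_at, read 3.37, 3.78 and 4.23 on the DNMTs-Tg arrays, against 4.98, 4.69 and 5.50 on the wild-type arrays, also without overlap. All of these lay at or below the 40th percentile on at least 4 arrays.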
